A study of Homo sapiens with 4 samples.

Results

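The 35 genes described here encode lysosomal enzymes and their activators, lysosomal membrane proteins, subunits of the lysosomal proton pump and the transcription factors TFEB and TFE3. They were found as the rows of the stranded read count table whose gene name equals a listed symbol, which gave 35 of the 60651 genes in the table. Of these, 34 passed the filter on low counts and CLN3 did not, and 15636 genes passed in all. By role they comprise 6 proteases, 9 glycosidases and sulfatases, 6 lipid hydrolases and lipid-binding activators, 6 membrane proteins, 4 pump subunits and 4 others, namely TFEB, TFE3, SQSTM1 and GRN. The members were chosen with earlier results of these data known, so shares and medians set beside all genes describe this list only.

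All RNA came from KP4, an established human cell line of pancreatic ductal adenocarcinoma, grown in DMEM with 10% FBS. The 4 groups, each with 3 sequenced libraries, were E5 cells given FOLFIRINOX, E5 cells given DMSO as vehicle, control cells given FOLFIRINOX and control cells given DMSO, each for 96 h. FOLFIRINOX was a mixture of SN-38 (25 nM), the active metabolite of irinotecan, an agent that the labels write as 5-F (10 µM) and the platinum compound oxaliplatin (5 µM). The title of the series calls the E5 cells resistant, and its design text describes cells that went through 5 rounds of DMSO or FOLFIRINOX, so the earlier exposure of the E5 vehicle cells is not settled here, nor is it given whether E5 is a single clone.

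Lysosomes are acidic organelles in which hydrolases break down proteins, sugars and lipids that arrive by endocytosis and autophagy. TFEB, TFE3 and the related MITF bind a short palindromic DNA element with the core CACGTG near the start of many lysosomal genes and raise their transcription. These factors are held in the cytoplasm when the kinase complex mTORC1 on the lysosomal surface phosphorylates them, so the amount of their mRNA is not a measure of their activity, and their nuclear amount was not measured here.

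The promoter sequences below show where this element lies in the members, because genes that carry it went in different directions in the comparisons that follow. RefSeq promoter windows on build GRCh38.p14, from 250 bases before to 50 bases after a start site, were matched for 27 of the 35 members. CACGTG, which reads the same on both strands, was found in windows of 9 of these 27 members (33.3%) and in windows of 8.77% of the 27305 genes in the table. The longer palindrome TCACGTGA, which contains CACGTG, was found in 6 members (22.2%) and in 1.18% of all genes, and that palindrome with a G before it and a C after it in GAA and MCOLN1 (7.41%) and in 0.421% of all genes. The 9 members were ATP6V0D1, CD63, CLN3, CTSA, CTSD, GAA, LAMP1, MCOLN1 and NEU1. For the 8 of them that were tested, 1 stretch each is printed from the coding strand, with the match in capitals and 20 bases on either side, and the windows of CTSA, GAA, LAMP1 and MCOLN1 hold further matches. Those not set in capitals include the longest form in MCOLN1 and TCACGTGA in CTSA. GAA encodes the acid alpha-glucosidase (chr17:80101483-80101532, + strand), MCOLN1 a calcium channel (chr19:7522562-7522609, +), NEU1 a sialidase (chr6:31862922-31862967, -), ATP6V0D1 a pump subunit (chr16:67481190-67481237, -), CTSA a carboxypeptidase (chr20:45891273-45891318, +), CTSD an aspartic protease (chr11:1763949-1763994, -), and LAMP1 (chr13:113297190-113297237, +) and CD63 (chr12:55729164-55729209, -) membrane glycoproteins.
GAA: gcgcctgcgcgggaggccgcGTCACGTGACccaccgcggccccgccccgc
MCOLN1: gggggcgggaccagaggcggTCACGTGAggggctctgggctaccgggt
NEU1: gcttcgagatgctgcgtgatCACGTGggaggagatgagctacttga
ATP6V0D1: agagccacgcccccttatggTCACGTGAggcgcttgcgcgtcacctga
CTSA: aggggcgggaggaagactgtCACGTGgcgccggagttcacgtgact
CTSD: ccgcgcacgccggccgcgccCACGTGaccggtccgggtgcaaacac
LAMP1: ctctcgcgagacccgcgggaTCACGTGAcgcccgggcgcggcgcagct
CD63: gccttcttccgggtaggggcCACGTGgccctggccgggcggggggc

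Reads assigned to genes numbered between 7359034 and 21775030 per library, and levels of a gene across libraries are given as CPM, the usual depth-scaled counts, with library sizes adjusted by TMM. The 3 libraries of a group are numbered columns of 1 GEO sample, so p-values measure the spread between such columns, which may be technical, and in bulk RNA fewer cells that express a gene and less RNA per cell cannot be told apart. Of 8 epithelial markers, KRT8, KRT18 and SOX9 were abundant, whereas KRT7, KRT19, EPCAM and CDH1 did not exceed 9.78, 4.51, 1.49 and 2.13 CPM in any library. The summed epithelial markers ranged from 905 to 1005 CPM in E5 FOLFIRINOX libraries, 843 to 941 in E5 vehicle libraries, 494 to 548 in control FOLFIRINOX libraries and 249 to 280 in control vehicle libraries (279.6 at most). Single epithelial markers did not all follow the sum, which the abundant ones carry. With the drug 3 of the 8 rose and 4 fell in E5 cells, and 5 rose and 2 fell in control cells. In E5 against control cells 6 were higher and EPCAM lower under FOLFIRINOX, and 7 were higher under vehicle. Of 10 macrophage markers, only PTPRC, the leukocyte phosphatase CD45, was above 1 CPM in any library, with means of 0.0345 CPM in E5 FOLFIRINOX libraries, 0.0656 in E5 vehicle libraries, 11.4 in control FOLFIRINOX libraries and 51.9 in control vehicle libraries. The summed fibroblast markers lay between 9.2 and 11.1 CPM in E5 FOLFIRINOX libraries, 16.2 and 17.4 in E5 vehicle libraries, 3.96 and 4.02 in control FOLFIRINOX libraries and 5.45 and 5.87 in control vehicle libraries. The part of these markers in the results below was not tested.

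The lysosomal genes spanned more than 3 orders of magnitude in level per transcript length, compared here as the authors' FPKM. SQSTM1, an autophagy receptor, averaged 1122 ± 42.1 FPKM (SD, n = 3) in E5 FOLFIRINOX libraries, 571 ± 28.2 in E5 vehicle libraries, 803 ± 71.8 in control FOLFIRINOX libraries and 298 ± 16.9 in control vehicle libraries. PSAP, the precursor of the saposins that present sphingolipids to their hydrolases, averaged 471 ± 11.6 FPKM (SD, n = 3) in E5 FOLFIRINOX libraries, 632 ± 26.7 in E5 vehicle libraries, 458 ± 22.1 in control FOLFIRINOX libraries and 726 ± 26.4 in control vehicle libraries. CD63, a tetraspanin of late endosomes, averaged 504 ± 9.53 FPKM (SD, n = 3) in E5 FOLFIRINOX libraries, 447 ± 13.7 in E5 vehicle libraries, 379 ± 14.9 in control FOLFIRINOX libraries and 269.6 ± 13.4 in control vehicle libraries. The leading gene per length was therefore SQSTM1 in the E5 and control FOLFIRINOX groups and PSAP in both vehicle groups. TFEB averaged 3.56 FPKM over the 12 libraries and was among the lowest, and CTSZ, a carboxypeptidase of the cathepsin family, was last at 0.192 FPKM. The span of more than 3 orders rests on CTSZ, which had 12.6 CPM for each FPKM against a median of 2.09 over the members.

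**Figure D1:**
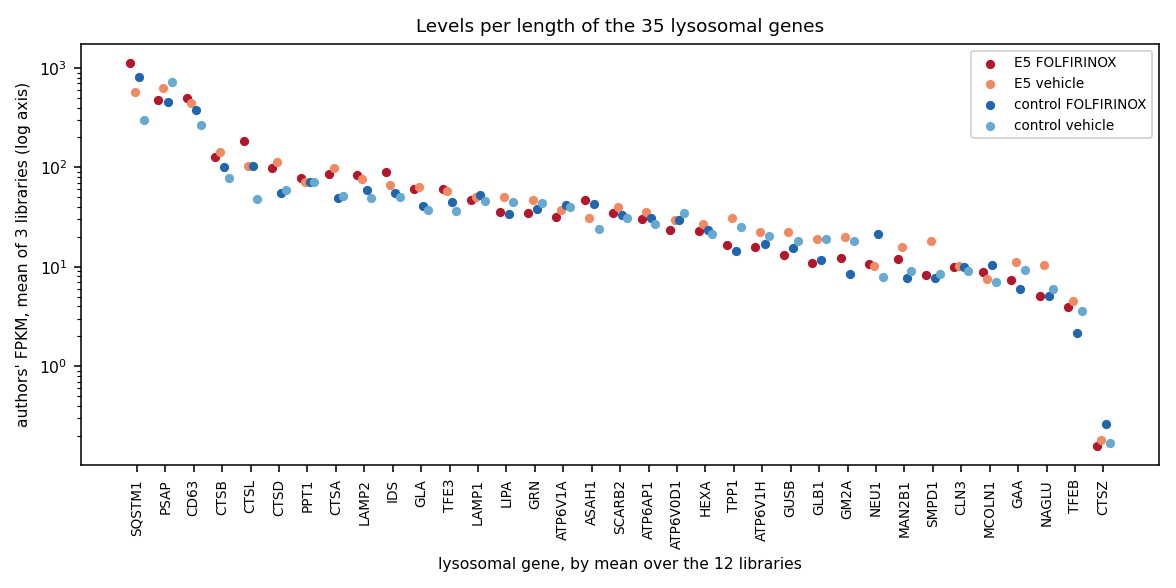
Authors' FPKM on a log axis for the 35 lysosomal genes, ordered by their mean over the 12 libraries, with a point for the mean of the 3 libraries of each group. SQSTM1, PSAP and CD63 lie highest, at means over all libraries of 699, 572 and 400 FPKM, and TFEB and CTSZ lowest, at 3.56 and 0.192 FPKM.

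Some genes have counts that are less certain than their spread shows. In GENCODE v29, 6 members share over 10% of their exon bases with another gene on the same strand, which the count could leave out as ambiguous, with CTSD at 41.7%, CLN3 at 25.2%, MAN2B1 at 21.2%, IDS at 17.4%, NAGLU at 12.6% and TPP1 at 11.6%. Only 9 of the 35 members have the same coordinates in v29 as in the deposited counts. The overlaps in the annotation used for counting may therefore differ from these shares. CLN3, a lysosomal membrane protein lost in juvenile Batten disease, had 2 to 13 reads per library although the authors list it at a mean of 9.79 FPKM, and it entered no test. IDS, the iduronate sulfatase, had 0.22 CPM for each FPKM and CTSD 0.658, against a median of 2.09 over the members, while CTSZ had 12.6. Of the other genes with shared exons, CLN3 had 0.0537, whereas TPP1 had 3.09, MAN2B1 2.1 and NAGLU 1.96. As background, IDS and GUSB also have pseudogene copies in the genome.

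With FOLFIRINOX, more of the 34 tested members fell than rose in both kinds of cells by read counts. In control cells the authors' FPKM gave 10 or 11 members that rose and 9 that fell. SQSTM1, the lysosomal endopeptidase CTSL and the acid ceramidase ASAH1 rose in E5 and in control cells. The tripeptidyl peptidase TPP1, the beta-galactosidase GLB1, the saposin precursor PSAP, the GM2 activator GM2A and 11 other genes fell in both. In E5 cells 3 members rose, 19 fell and 12 did not pass, so that 64.7% of the 34 tested members were called, where 52.3% of all 15636 tested genes were, with 25% of all genes higher and 27.3% lower. In control cells 7 rose, 17 fell and 10 did not pass, a share of 70.6% beside 65.3% of all genes, 32.6% higher and 32.7% lower. The shares called are thus not far from those of all genes, while the members' calls lean to the lower side. The median log2 fold change of the members was -0.26 in E5 cells beside 0.003 over all genes, and -0.21 in control cells beside 0.004. Values written with ± are log2 fold changes with their standard errors, unless an SD is named. Calls are adjusted p-values under 0.05 by edgeR's quasi-likelihood test, adjusted by Benjamini-Hochberg over all 15636 genes, and this test stands behind every adjusted p-value below.

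The comparison was made within each line, so the drug responses of E5 and control cells share no library. Of the 34 tested members, 3 rose in both lines, 15 fell in both and 6 passed in neither. The shares of all tested genes that rose or fell in both lines were not computed. These joint counts therefore describe the members only and do not set them apart from other genes. The other 10 passed in 1 line. NEU1, MCOLN1, CD63 and TFE3 rose in control cells alone and PPT1 and TFEB fell there alone, whereas ATP6AP1, CTSA, CTSB and HEXA fell in E5 cells alone. A call in 1 line alone is no test of a difference between the lines, which is given separately below. The control cell counts depended on scaling. With total counts in place of TMM the median of all genes in control cells moved to 0.14, with 6206 genes higher and 3991 lower against 5094 and 5109 with TMM, and 9 members rose and 11 fell. With the authors' FPKM, tested by limma on log2(FPKM + 1), the calls of CTSA, CTSB, HEXA, MAN2B1, SCARB2 and ATP6AP1 in E5 cells and of MAN2B1, GUSB, NAGLU, SMPD1, PPT1, GRN, SCARB2 and ATP6V1A in control cells were lost. The same setting added calls of higher levels for IDS and CD63 in E5 cells, giving 5 higher and 13 lower, and for CTSB (0.34), LAMP1 (0.21) and LAMP2 (0.23) in control cells, giving 10 higher and 9 lower.

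Among members with the CACGTG core printed above, 3 of the 8 tested fell in E5 cells (GAA, ATP6V0D1 and CTSA) and 5 did not pass. In control cells 3 of these 8 rose (NEU1, MCOLN1 and CD63), 2 fell (GAA and ATP6V0D1) and 3 did not pass (CTSA, CTSD and LAMP1). Of the 18 tested members whose matched windows lack the core, 2 rose and 10 fell in E5 cells, and 3 rose and 11 fell in control cells. Among all tested genes 25% rose and 27.3% fell in E5 cells, and 32.6% rose and 32.7% fell in control cells. GAA and MCOLN1, which both hold the longest form, went in opposite directions in control cells. These are descriptions of letters in a window and of calls, with no test of their relation.

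**Figure D2:**
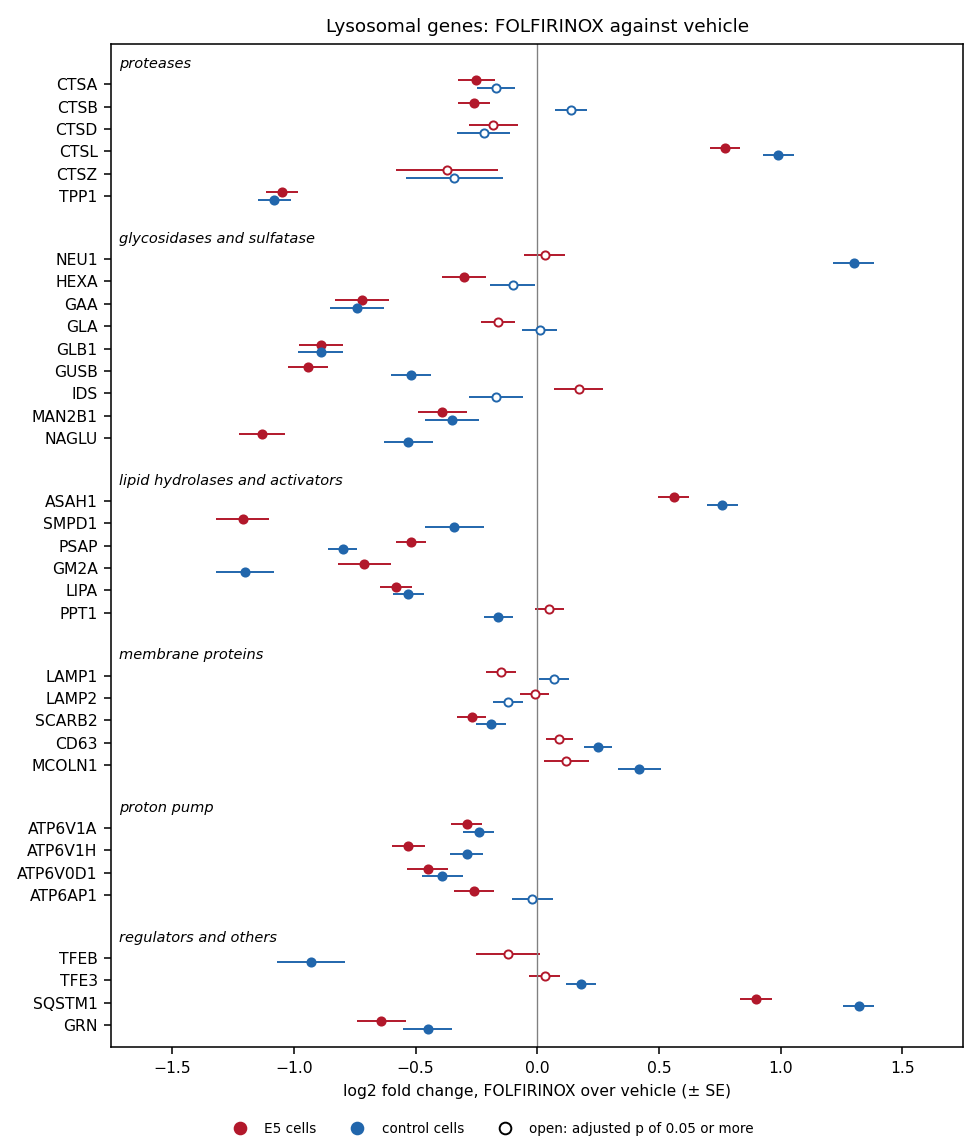
Log2 fold change with standard error of the 34 tested lysosomal genes under FOLFIRINOX against vehicle, grouped by role, with E5 cells above control cells for each gene. Filled points passed at an adjusted p under 0.05; SQSTM1, CTSL and ASAH1 lie to the right in both lines, NEU1 in control cells only, and TPP1, GLB1 and GM2A to the left in both.

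The size of the drug response differed between the lines for 9 of the 34 tested members by the interaction term (E5 response minus control response). The difference was higher in 3, namely TFEB, GM2A and PSAP, and lower in 6, namely NEU1, SMPD1, NAGLU, GUSB, SQSTM1 and CTSB. That is 26.5% of the members, close to the 25.7% of all tested genes, of which 13.3% were higher and 12.4% lower. The members' median difference was -0.11 beside 0.006 over all genes. With total counts only, 1 member was higher and 11 lower, and over all genes 1596 were higher and 2448 lower, against 2080 and 1933 with TMM. With the authors' FPKM the calls of TFEB, GM2A and PSAP were lost in all 3 settings and that of SMPD1 in 2 of them, and the call of GUSB was lost without the filter on low counts (adjusted p = 0.053).

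Without the drug, E5 cells carried more mRNA than control cells did for most of the 34 tested members. CTSL, SMPD1, SQSTM1, CTSA, CTSD, NAGLU and CTSB were the highest, each by a log2 fold change of at least 0.83, and PSAP was the only one of the 34 tested members that was lower. Of the 34 tested members 22 were higher, 1 was lower and 11 did not pass, which is 67.6% called beside 44.3% of all genes, 22.1% higher and 22.2% lower. The median of the members was 0.34 beside -0.009 over all genes. Under FOLFIRINOX 19 were higher in E5 than in control cells, 4 were lower and 11 did not pass, again 67.6%, beside 54.3% of all genes, 26.7% higher and 27.6% lower. The median there was 0.25 beside -0.012. The summed epithelial and summed fibroblast markers were also higher in E5 cells under both treatments and PTPRC lower, at the values given above, and their part was not tested. Among the 127 tested genes of the other lists described below, 52 were higher under vehicle, 11 were lower and 64 did not pass.

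The FOLFIRINOX and vehicle versions of this comparison share no library. In both, 16 members were higher in E5 cells, namely ASAH1, CD63, CTSA, CTSB, CTSD, CTSL, GAA, GLA, IDS, LAMP2, MAN2B1, SCARB2, SMPD1, SQSTM1, TFE3 and TPP1. The share of all tested genes that were higher under both treatments was not computed, so this joint count describes the members only. NEU1 was lower in E5 cells under FOLFIRINOX and higher under vehicle. Higher under vehicle alone were ATP6AP1, ATP6V1H, GUSB, HEXA and NAGLU, and higher under FOLFIRINOX alone were GM2A, PPT1 and TFEB. Lower were PSAP under vehicle and ATP6V0D1, ATP6V1A, MCOLN1 and NEU1 under FOLFIRINOX, and of these PSAP, ATP6V0D1, ATP6V1A and MCOLN1 lost the call without single libraries named below. With the authors' FPKM the calls of ASAH1, GAA, PPT1, SCARB2, SMPD1 and TPP1 under FOLFIRINOX and of GAA and ATP6V1H under vehicle were lost. Without the 6 genes that share exons in GENCODE v29, a choice made after seeing the data, 15 of 29 were higher and 4 lower under FOLFIRINOX, and 17 higher and 1 lower under vehicle.

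**Figure D3:**
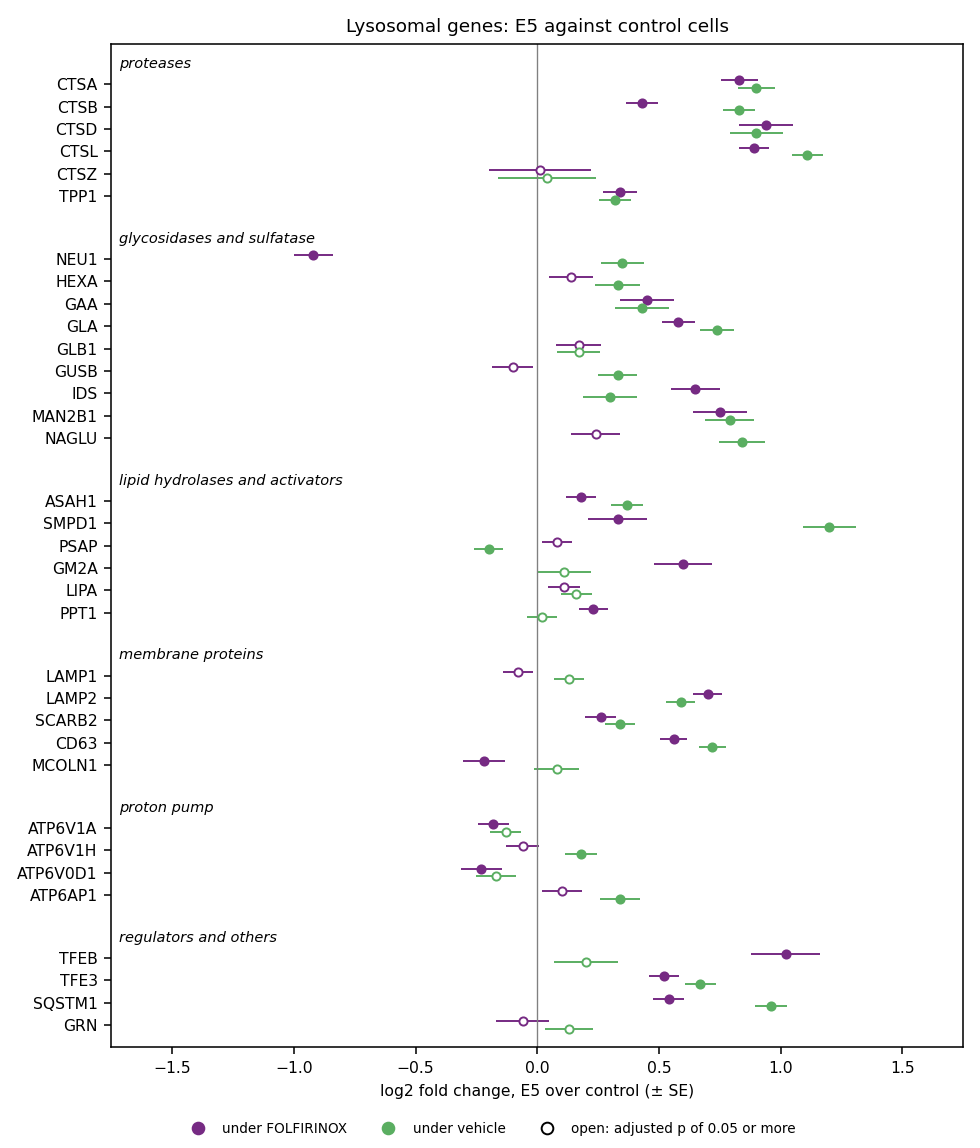
Log2 fold change with standard error of the 34 tested lysosomal genes in E5 against control cells, grouped by role, with FOLFIRINOX above vehicle for each gene. Most filled points (adjusted p under 0.05) lie to the right of 0; NEU1 lies at -0.92 under FOLFIRINOX and 0.35 under vehicle, and TFEB at 1.02 under FOLFIRINOX.

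The transcription factors differed from each other. TFEB (ENSG00000112561.19, chromosome 6, 41683978 to 41736259, GRCh38), a master regulator of lysosomal genes, stood at 10.8, 8.55 and 9.66 CPM in E5 FOLFIRINOX libraries and 12.6, 9.68 and 10.04 in E5 vehicle libraries. For TFEB, 4.50, 5.21 and 4.52 CPM were found in control FOLFIRINOX libraries and 8.45, 8.78 and 10.1 in control vehicle libraries. The control FOLFIRINOX libraries lay below all others, and the other 3 groups overlapped. With the drug TFEB had a log2 fold change of -0.12 ± 0.13 (adjusted p = 0.44) in E5 cells, whereas in control cells it fell 1.91-fold, -0.93 ± 0.14 (adjusted p = 1.6e-05). The difference of these responses was 0.81 ± 0.19 (adjusted p = 0.0046). TFEB was higher in E5 than in control cells under FOLFIRINOX, at 1.02 ± 0.14 (adjusted p = 7.8e-06), and had 0.20 ± 0.13 (adjusted p = 0.21) under vehicle. The difference of the responses was not called in any of the 3 FPKM settings, where it was 0.42, 0.56 and 0.42 with adjusted p = 0.083, 0.072 and 0.16 by limma.

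TFE3 (ENSG00000068323.17, chromosome X, 49028726 to 49043410, GRCh38), the partner of TFEB with the same DNA site, was an order of magnitude more abundant per length than TFEB, at 50.1 against 3.56 FPKM over all libraries. Its counts gave 236, 223 and 219 CPM in E5 FOLFIRINOX libraries and 234, 217 and 214 in E5 vehicle libraries. For TFE3, 150.0, 166 and 155 CPM were found in control FOLFIRINOX libraries and 136, 134 and 147 in control vehicle libraries. All E5 libraries were above all control libraries, with 0.52 ± 0.062 (adjusted p = 2e-06) under FOLFIRINOX and 0.67 ± 0.063 (adjusted p = 1.4e-07) under vehicle. Its drug response was 0.03 ± 0.062 (adjusted p = 0.7) in E5 cells and 0.18 ± 0.063 (adjusted p = 0.021) in control cells. The control cell call was lost without control FOLFIRINOX library 2 (0.13, adjusted p = 0.09), control vehicle library 1 (0.15, 0.086) or control vehicle library 2 (0.15, 0.094).

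SQSTM1 (ENSG00000161011.20, chromosome 5, 179806398 to 179838078, GRCh38) encodes p62, which delivers ubiquitinated cargo to autophagosomes and is itself degraded in lysosomes. It stood at 2939, 2927 and 2749.7 CPM in E5 FOLFIRINOX libraries and 1622, 1515 and 1467 in E5 vehicle libraries. For SQSTM1, 1877, 2188 and 1872 CPM were found in control FOLFIRINOX libraries and 779.9, 755 and 838 in control vehicle libraries. None of the 4 groups overlapped another, and the order was E5 FOLFIRINOX, control FOLFIRINOX, E5 vehicle and control vehicle. With the drug it rose 1.87-fold in E5 cells, 0.90 ± 0.065 (adjusted p = 1e-08) on the log2 scale, and 2.5-fold in control cells, 1.32 ± 0.065 (adjusted p = 4.4e-11). The response was smaller in E5 cells, with a difference of -0.42 ± 0.091 (adjusted p = 0.003). E5 cells had more of it than control cells under FOLFIRINOX, at 0.54 ± 0.064 (adjusted p = 2.2e-06), and under vehicle, at 0.96 ± 0.065 (adjusted p = 2e-09).

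GRN (ENSG00000030582.18, chromosome 17, 44345246 to 44353106, GRCh38), the precursor of progranulin, a secreted growth factor that is cut into granulins in lysosomes, had 59.6, 57.3 and 51.05 CPM in E5 FOLFIRINOX libraries and 99.6, 84.7 and 78.98 in E5 vehicle libraries. For GRN, 57.1, 67.1 and 51.1 CPM were found in control FOLFIRINOX libraries and 80.3, 73.6 and 86.1 in control vehicle libraries. Within each line the FOLFIRINOX libraries lay below the vehicle libraries, and the lines overlapped. GRN fell in E5 cells (log2 fold change -0.64 ± 0.1, adjusted p = 7.5e-05) and in control cells (-0.45 ± 0.1, adjusted p = 0.0012). E5 against control gave -0.06 ± 0.11 (adjusted p = 0.64) under FOLFIRINOX and 0.13 ± 0.1 (adjusted p = 0.34) under vehicle.

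**Figure D4:**
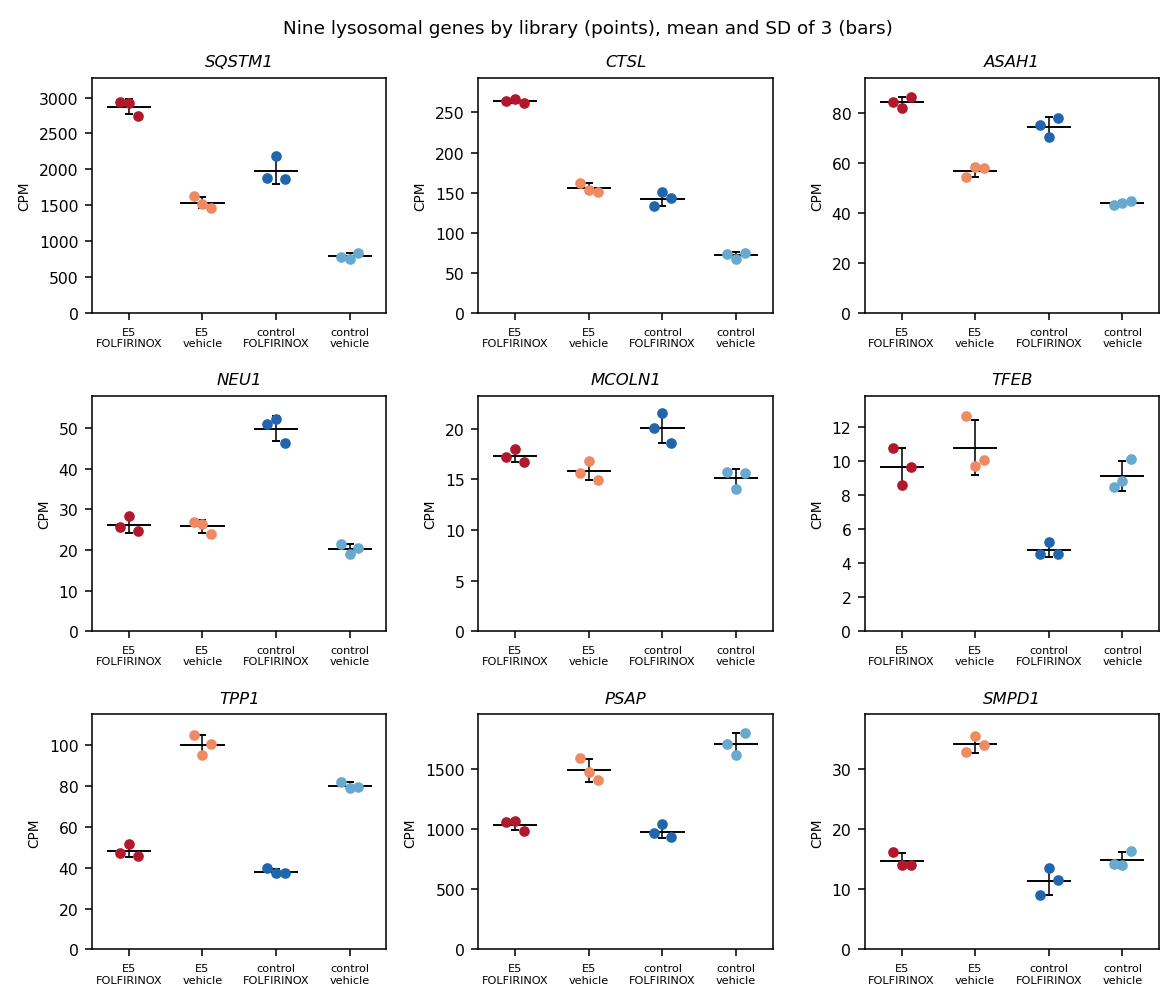
CPM of SQSTM1, CTSL, ASAH1, NEU1, MCOLN1, TFEB, TPP1, PSAP and SMPD1 in each of the 12 libraries (points), with the mean and SD of the 3 libraries of a group (bars), each panel on its own axis from 0. NEU1 is high in the control FOLFIRINOX group alone and TFEB low there alone, whereas SMPD1 is high in the E5 vehicle group alone.

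Among the membrane proteins, the channel MCOLN1 and the glycoproteins behaved differently. MCOLN1 (ENSG00000090674.16, chromosome 19, 7522624 to 7534009, GRCh38) releases calcium from the lysosome, which as background leads to dephosphorylation of TFEB. Its level was 17.2, 17.9 and 16.7 CPM in E5 FOLFIRINOX libraries and 15.7, 16.9 and 14.98 in E5 vehicle libraries. For MCOLN1, 20.1, 21.5 and 18.6 CPM were found in control FOLFIRINOX libraries and 15.7, 14.1 and 15.6 in control vehicle libraries. The control FOLFIRINOX libraries were above every other library, and the remaining groups overlapped. With the drug it had 0.12 ± 0.091 (adjusted p = 0.29) in E5 cells and rose in control cells, at 0.42 ± 0.089 (adjusted p = 0.00059), with a difference of -0.30 ± 0.13 (adjusted p = 0.099) that did not pass. Under FOLFIRINOX it was lower in E5 than in control cells, at -0.22 ± 0.087 (adjusted p = 0.044), a call that was lost when any 1 of 9 libraries was left out, namely control FOLFIRINOX library 1 or 2, control vehicle library 1 or any of the 6 E5 libraries, with values of -0.24 to -0.14 and adjusted p-values of 0.054 to 0.24. Under vehicle it had 0.08 ± 0.093 (adjusted p = 0.53).

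CD63 and LAMP2 set the lines apart more than the treatments. CD63 (ENSG00000135404.12, chromosome 12, 55725323 to 55729707, GRCh38) had 428, 428 and 446 CPM in E5 FOLFIRINOX libraries and 422, 400.5 and 402 in E5 vehicle libraries. For CD63, 287, 306 and 290.4 CPM were found in control FOLFIRINOX libraries and 237, 241 and 263 in control vehicle libraries. All E5 libraries lay above all control libraries. CD63 was higher in E5 cells by 0.56 ± 0.055 (adjusted p = 2.3e-07) under FOLFIRINOX and by 0.72 ± 0.056 (adjusted p = 1e-08) under vehicle. With the drug it had 0.09 ± 0.055 (adjusted p = 0.18) in E5 cells and rose by 0.25 ± 0.056 (adjusted p = 0.00071) in control cells. LAMP2 (ENSG00000005893.16, chromosome X, 120426148 to 120469365, GRCh38), a membrane glycoprotein needed for fusion with autophagosomes and for chaperone-mediated autophagy, had 266, 258 and 274 CPM in E5 FOLFIRINOX libraries and 262, 275 and 268 in E5 vehicle libraries. For LAMP2, 160.4, 157 and 174 CPM were found in control FOLFIRINOX libraries and 175, 189.8 and 170.0 in control vehicle libraries. Again no E5 library overlapped the control libraries, with 0.70 ± 0.06 (adjusted p = 3.9e-08) under FOLFIRINOX and 0.59 ± 0.06 (adjusted p = 3.8e-07) under vehicle. Its drug response was -0.01 ± 0.059 (adjusted p = 0.89) in E5 cells and -0.12 ± 0.06 (adjusted p = 0.088) in control cells, and neither passed. With the authors' FPKM it turned to 0.14 in E5 cells without a filter (adjusted p = 0.05 by limma), and in control cells it passed as higher in all 3 FPKM settings, at 0.23, 0.24 and 0.23 (adjusted p = 0.0079, 0.01 and 0.0024). By read counts in control cells it passed as lower without control FOLFIRINOX library 3 (-0.17, adjusted p = 0.037) or control vehicle library 3 (-0.16, 0.048).

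LAMP1 and SCARB2 had small values throughout. LAMP1, the most common marker of lysosomes, averaged 144 ± 5.64 CPM (SD, n = 3) in E5 FOLFIRINOX libraries, 160.2 ± 6.70 in E5 vehicle libraries, 153 ± 2.92 in control FOLFIRINOX libraries and 146 ± 9.67 in control vehicle libraries. None of its 4 comparisons passed, with -0.15 ± 0.062 (adjusted p = 0.055) for the drug in E5 cells, 0.07 ± 0.062 (adjusted p = 0.36) for the drug in control cells, -0.08 ± 0.062 (adjusted p = 0.28) for E5 against control cells under FOLFIRINOX and 0.13 ± 0.062 (adjusted p = 0.094) under vehicle. Without control vehicle library 3 the drug comparison in E5 cells (-0.15, adjusted p = 0.037), the line comparison under vehicle (0.19, 0.025) and the difference of the responses (-0.27, 0.032) passed. With total counts only the drug comparison in control cells passed as higher (0.20, adjusted p = 0.0098). SCARB2, also called LIMP-2, carries beta-glucocerebrosidase to lysosomes and averaged 137 ± 7.85 CPM (SD, n = 3) in E5 FOLFIRINOX libraries, 165 ± 3.35 in E5 vehicle libraries, 114 ± 6.25 in control FOLFIRINOX libraries and 131 ± 2.91 in control vehicle libraries. It fell in E5 cells (log2 fold change -0.27 ± 0.061, adjusted p = 0.0015) and in control cells (-0.19 ± 0.062, adjusted p = 0.011), where it has 0.10 with the authors' FPKM. It was higher in E5 than in control cells by 0.26 ± 0.062 (adjusted p = 0.0017) under FOLFIRINOX and by 0.34 ± 0.062 (adjusted p = 0.00025) under vehicle.

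Of the 4 members of the proton pump that acidifies the lysosome, 4 fell with the drug in E5 cells and 3 in control cells, whereas other subunits described further on mostly rose or did not pass. Among all tested genes 27.3% fell in E5 cells and 32.7% in control cells. ATP6V1A, the catalytic subunit, averaged 151 ± 4.21 CPM (SD, n = 3) in E5 FOLFIRINOX libraries, 184 ± 5.07 in E5 vehicle libraries, 171 ± 5.41 in control FOLFIRINOX libraries and 201 ± 15.9 in control vehicle libraries. ATP6V1H, a regulatory subunit of the cytosolic sector, averaged 32.5 ± 1.41 CPM (SD, n = 3) in E5 FOLFIRINOX libraries, 47.1 ± 2.05 in E5 vehicle libraries, 33.9 ± 1.19 in control FOLFIRINOX libraries and 41.4 ± 0.298 in control vehicle libraries. ATP6V0D1, a subunit of the membrane sector (ENSG00000159720.12, chromosome 16, 67438014 to 67481181, GRCh38), had 39.1, 38.2 and 37.7 CPM in E5 FOLFIRINOX libraries and 56.9, 51.04 and 50.04 in E5 vehicle libraries. For ATP6V0D1, 42.6, 48.6 and 43.04 CPM were found in control FOLFIRINOX libraries and 58.7, 53.4 and 65.2 in control vehicle libraries. For ATP6V0D1 the FOLFIRINOX libraries lay below the vehicle libraries in each line. In E5 cells the log2 fold changes were -0.29 ± 0.063 (adjusted p = 0.00099) for ATP6V1A, -0.53 ± 0.067 (adjusted p = 5.6e-06) for ATP6V1H, -0.45 ± 0.085 (adjusted p = 0.00027) for ATP6V0D1 and -0.26 ± 0.082 (adjusted p = 0.014) for the accessory subunit ATP6AP1. In control cells they were -0.24 ± 0.063 (adjusted p = 0.0032) for ATP6V1A, which has 0.04 with the authors' FPKM, -0.29 ± 0.067 (adjusted p = 0.0012) for ATP6V1H and -0.39 ± 0.083 (adjusted p = 0.00051) for ATP6V0D1, and ATP6AP1 had -0.02 ± 0.083 (adjusted p = 0.84). The ATP6AP1 call in E5 cells was lost without E5 FOLFIRINOX library 3 (-0.20, adjusted p = 0.072) or E5 vehicle library 1 (-0.20, 0.07).

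Between the lines 2 of the 4 pump members were lower in E5 cells under FOLFIRINOX and 2 were higher under vehicle. Among all tested genes 27.6% were lower under FOLFIRINOX and 22.1% higher under vehicle. Under FOLFIRINOX, ATP6V0D1 was lower in E5 cells at -0.23 ± 0.084 (adjusted p = 0.03) and ATP6V1A at -0.18 ± 0.063 (adjusted p = 0.023). The ATP6V0D1 call was lost without control FOLFIRINOX library 2 or any 1 of the E5 FOLFIRINOX libraries (-0.24 to -0.15, adjusted p = 0.055 to 0.18), and the ATP6V1A call without control FOLFIRINOX library 1 or 3 or E5 FOLFIRINOX library 3 (-0.16 to -0.14, adjusted p = 0.08 to 0.1). Under vehicle, ATP6AP1 was higher in E5 cells at 0.34 ± 0.083 (adjusted p = 0.003) and ATP6V1H at 0.18 ± 0.067 (adjusted p = 0.035), whereas ATP6V0D1 had -0.17 ± 0.083 (adjusted p = 0.11) and ATP6V1A -0.13 ± 0.063 (adjusted p = 0.11). The ATP6V1H call was lost without any 1 of the 3 control vehicle libraries or without E5 vehicle library 1 or 2 (0.15 to 0.20, adjusted p = 0.062 to 0.12). ATP6V0D1 passed as lower under vehicle without control vehicle library 2 (-0.24, adjusted p = 0.037), and ATP6V1A without control vehicle library 3 (-0.18, 0.028).

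Of the 6 proteases, CTSL rose, TPP1 fell and the others moved less with the drug. CTSL (ENSG00000135047.16, chromosome 9, 87724051 to 87731469, GRCh38) is a cysteine protease with broad endopeptidase activity. It stood at 264, 267 and 262 CPM in E5 FOLFIRINOX libraries and 162, 154 and 151 in E5 vehicle libraries. For CTSL, 133, 150.3 and 144 CPM were found in control FOLFIRINOX libraries and 73.8, 67.7 and 74.5 in control vehicle libraries. E5 FOLFIRINOX libraries were the highest and control vehicle libraries the lowest, and the E5 vehicle and control FOLFIRINOX groups met between 150.3 and 150.7 CPM without overlapping. CTSL rose 1.7-fold in E5 cells, 0.77 ± 0.061 (adjusted p = 3.7e-08), and 1.98-fold in control cells, 0.99 ± 0.063 (adjusted p = 8.8e-10), with a difference of -0.22 ± 0.088 (adjusted p = 0.073) that did not pass. CTSL in E5 cells was 1.85-fold higher under FOLFIRINOX, 0.89 ± 0.061 (adjusted p = 2.4e-09), and 2.16-fold higher under vehicle, 1.11 ± 0.064 (adjusted p = 2e-10).

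TPP1 (ENSG00000166340.17, chromosome 11, 6612768 to 6619448, GRCh38) removes tripeptides from the amino end of proteins and is lost in a late infantile form of ceroid lipofuscinosis. It had 47.3, 51.4 and 45.8 CPM in E5 FOLFIRINOX libraries and 105, 94.98 and 100.3 in E5 vehicle libraries. For TPP1, 39.7, 37.3 and 37.2 CPM were found in control FOLFIRINOX libraries and 82.1, 78.9 and 79.4 in control vehicle libraries. No groups overlapped, and the vehicle libraries of both lines lay above all FOLFIRINOX libraries. TPP1 fell 2.08-fold in E5 cells, -1.05 ± 0.066 (adjusted p = 2.5e-09), and 2.11-fold in control cells, -1.08 ± 0.068 (adjusted p = 7.4e-10), with a difference of 0.02 ± 0.094. It was higher in E5 cells by 0.34 ± 0.069 (adjusted p = 0.00045) under FOLFIRINOX and by 0.32 ± 0.065 (adjusted p = 0.00068) under vehicle.

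CTSB, a cysteine protease with carboxydipeptidase activity, had 311, 301 and 288 CPM in E5 FOLFIRINOX libraries and 385, 352 and 342 in E5 vehicle libraries. For CTSB, 213, 240.4 and 213 CPM were found in control FOLFIRINOX libraries and 200.4, 193 and 212 in control vehicle libraries. The E5 libraries lay above the control libraries, the E5 FOLFIRINOX libraries below the E5 vehicle libraries and the control FOLFIRINOX libraries just above the control vehicle libraries. CTSB fell in E5 cells (log2 fold change -0.26 ± 0.065, adjusted p = 0.0028) and had 0.14 ± 0.066 (adjusted p = 0.076) in control cells, and the difference was -0.40 ± 0.092 (adjusted p = 0.0047). In control cells it passed as higher with total counts only (0.27) and with DESeq2's size factors (0.16). It was higher in E5 cells by 0.43 ± 0.065 (adjusted p = 2.9e-05) under FOLFIRINOX and by 0.83 ± 0.066 (adjusted p = 1.5e-08) under vehicle.

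CTSA, CTSD and CTSZ complete the proteases. CTSA, a carboxypeptidase that also protects NEU1 and beta-galactosidase in a complex, averaged 174 ± 7.78 CPM (SD, n = 3) in E5 FOLFIRINOX libraries, 207 ± 15.1 in E5 vehicle libraries, 97.9 ± 8.71 in control FOLFIRINOX libraries and 110.3 ± 7.80 in control vehicle libraries. CTSD, the main aspartic protease, averaged 65.4 ± 3.18 CPM (SD, n = 3) in E5 FOLFIRINOX libraries, 74.1 ± 7.75 in E5 vehicle libraries, 34.03 ± 5.79 in control FOLFIRINOX libraries and 39.7 ± 3.12 in control vehicle libraries. CTSZ averaged 2.14 ± 0.309 CPM (SD, n = 3) in E5 FOLFIRINOX libraries, 2.69 ± 0.648 in E5 vehicle libraries, 2.12 ± 0.344 in control FOLFIRINOX libraries and 2.68 ± 0.101 in control vehicle libraries, from 16 to 54 reads per library, too few to show small changes. CTSA was higher in E5 cells by 0.83 ± 0.077 (adjusted p = 1.1e-07) under FOLFIRINOX and by 0.90 ± 0.077 (adjusted p = 3.9e-08) under vehicle, and CTSD by 0.94 ± 0.11 (adjusted p = 1.4e-06) and 0.90 ± 0.11 (adjusted p = 3e-06) in the same order. With the drug CTSA fell in E5 cells (log2 fold change -0.25 ± 0.076, adjusted p = 0.011), a call lost without E5 FOLFIRINOX library 3 (-0.20, adjusted p = 0.056) or E5 vehicle library 1 (-0.19, 0.062), and had -0.17 ± 0.077 (adjusted p = 0.065) in control cells, where it passed without control FOLFIRINOX library 2 (-0.24, 0.012) or control vehicle library 1 (-0.21, 0.049). CTSD had -0.18 ± 0.1 (adjusted p = 0.17) in E5 and -0.22 ± 0.11 (adjusted p = 0.093) in control cells, the second of which passed without control FOLFIRINOX library 2 (-0.37, adjusted p = 0.0049). CTSZ passed in no comparison, with -0.37 ± 0.21 for the drug in E5 cells, -0.34 ± 0.2 in control cells, 0.01 ± 0.21 for E5 against control cells under FOLFIRINOX and 0.04 ± 0.2 under vehicle.

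NEU1 had the largest difference of drug responses among the 34 tested members. NEU1 (ENSG00000204386.12, chromosome 6, 31857659 to 31862905, GRCh38) removes terminal sialic acids from glycoproteins and glycolipids. Its level was 25.7, 28.5 and 24.6 CPM in E5 FOLFIRINOX libraries and 26.9, 26.5 and 24 in E5 vehicle libraries. For NEU1, 51.1, 52.2 and 46.4 CPM were found in control FOLFIRINOX libraries and 21.5, 19.1 and 20.5 in control vehicle libraries. The control FOLFIRINOX libraries stood alone at the top, and the E5 FOLFIRINOX and E5 vehicle libraries overlapped above the control vehicle libraries. With the drug NEU1 had 0.03 ± 0.085 (adjusted p = 0.81) in E5 cells and rose 2.46-fold in control cells, 1.30 ± 0.083 (adjusted p = 8.4e-10), and the difference was -1.27 ± 0.12 (adjusted p = 1.7e-06). NEU1 in E5 cells was 1.9-fold lower than in control cells under FOLFIRINOX, -0.92 ± 0.08 (adjusted p = 4.5e-08), and 1.27-fold higher under vehicle, 0.35 ± 0.088 (adjusted p = 0.0038). The difference ranged from -1.37 to -1.22 over all settings and single libraries left out.

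GLB1, GAA and MAN2B1 fell with the drug to a like degree in the 2 lines. GLB1 (ENSG00000170266.16, chromosome 3, 32996609 to 33097202, GRCh38), the beta-galactosidase whose activity is used to stain senescent cells, had 25.6, 23.3 and 20.4 CPM in E5 FOLFIRINOX libraries and 45.8, 41.6 and 41.8 in E5 vehicle libraries. For GLB1, 19.7, 21.98 and 19.6 CPM were found in control FOLFIRINOX libraries and 40.4, 35.8 and 38.6 in control vehicle libraries. GLB1 libraries of the drug groups lay below all vehicle libraries. It fell in E5 cells (log2 fold change -0.89 ± 0.09, adjusted p = 4.4e-07) and in control cells (-0.89 ± 0.091, adjusted p = 2.1e-07), 1.85-fold and 1.86-fold. GAA (ENSG00000171298.13, chromosome 17, 80101556 to 80119881, GRCh38), which breaks down glycogen, averaged 24.7 ± 1.98 CPM (SD, n = 3) in E5 FOLFIRINOX libraries, 41.01 ± 4.74 in E5 vehicle libraries, 17.98 ± 1.40 in control FOLFIRINOX libraries and 30.2 ± 4.10 in control vehicle libraries and fell in E5 cells (log2 fold change -0.72 ± 0.11, adjusted p = 2.6e-05) and in control cells (-0.74 ± 0.11, adjusted p = 1.7e-05). MAN2B1, an alpha-mannosidase, averaged 25.4 ± 3.06 CPM (SD, n = 3) in E5 FOLFIRINOX libraries, 33.3 ± 1.85 in E5 vehicle libraries, 15.2 ± 1.88 in control FOLFIRINOX libraries and 19.2 ± 0.864 in control vehicle libraries and fell in E5 cells (log2 fold change -0.39 ± 0.1, adjusted p = 0.0038) and in control cells (-0.35 ± 0.11, adjusted p = 0.01), where the call was lost without control FOLFIRINOX library 3 (-0.24, adjusted p = 0.082). The differences of the responses were 0.00 ± 0.13 for GLB1, 0.02 ± 0.15 for GAA and -0.04 ± 0.15 for MAN2B1, none of which passed.

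Between the lines these 3 genes parted. GAA was higher in E5 cells by 0.45 ± 0.11 (adjusted p = 0.0028) under FOLFIRINOX and by 0.43 ± 0.11 (adjusted p = 0.0033) under vehicle. MAN2B1 was higher in E5 cells by 0.75 ± 0.11 (adjusted p = 1.4e-05) under FOLFIRINOX and by 0.79 ± 0.1 (adjusted p = 7.8e-06) under vehicle. GLB1 had 0.17 ± 0.093 (adjusted p = 0.13) and 0.17 ± 0.087 (adjusted p = 0.12) in the same order, and passed under FOLFIRINOX without control FOLFIRINOX library 2 (0.25, adjusted p = 0.048) or E5 FOLFIRINOX library 3 (0.27, 0.022).

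GUSB and NAGLU fell in both lines and fell more in E5 cells. GUSB (ENSG00000169919.17, chromosome 7, 65960684 to 65982215, GRCh38), the beta-glucuronidase that acts on glycosaminoglycans and on glucuronide conjugates, had 27.4, 24.7 and 22.1 CPM in E5 FOLFIRINOX libraries and 48.6, 46.6 and 48.1 in E5 vehicle libraries. For GUSB, 27.9, 25.2 and 26.9 CPM were found in control FOLFIRINOX libraries and 36.7, 37.1 and 39.8 in control vehicle libraries. Within each line the FOLFIRINOX libraries lay below the vehicle libraries, and the E5 vehicle libraries were above all others. GUSB fell in E5 cells (log2 fold change -0.94 ± 0.082, adjusted p = 8.2e-08) and in control cells (-0.52 ± 0.082, adjusted p = 3.4e-05), with a difference of -0.43 ± 0.12 (adjusted p = 0.012). NAGLU (ENSG00000108784.10, chromosome 17, 42536241 to 42544449, GRCh38), which acts in the breakdown of heparan sulfate, had 10.7, 8.76 and 10.2 CPM in E5 FOLFIRINOX libraries and 23.3, 20.7 and 21.5 in E5 vehicle libraries. For NAGLU, 7.84, 8.78 and 8.36 CPM were found in control FOLFIRINOX libraries and 12.6, 12.2 and 11.8 in control vehicle libraries. The E5 vehicle libraries of NAGLU stood above all others, and the control vehicle libraries came next. NAGLU fell 2.19-fold in E5 cells, -1.13 ± 0.095 (adjusted p = 6.1e-08), and 1.44-fold in control cells, -0.53 ± 0.1 (adjusted p = 0.00024), with a difference of -0.60 ± 0.14 (adjusted p = 0.005). Both were higher in E5 cells under vehicle, GUSB by 0.33 ± 0.08 (adjusted p = 0.0028) and NAGLU by 0.84 ± 0.094 (adjusted p = 1.2e-06), and neither passed under FOLFIRINOX, with -0.10 ± 0.084 (adjusted p = 0.35) and 0.24 ± 0.1 (adjusted p = 0.062), where NAGLU passed without E5 FOLFIRINOX library 2 (0.32, adjusted p = 0.022).

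HEXA, GLA and IDS showed small drug responses. HEXA, the alpha subunit of hexosaminidase A lost in Tay-Sachs disease, averaged 25.03 ± 1.13 CPM (SD, n = 3) in E5 FOLFIRINOX libraries, 31.1 ± 3.08 in E5 vehicle libraries, 22.5 ± 2.46 in control FOLFIRINOX libraries and 24.6 ± 1.25 in control vehicle libraries. It fell in E5 cells (log2 fold change -0.30 ± 0.091, adjusted p = 0.012). That call did not hold without E5 vehicle library 1 (-0.23, adjusted p = 0.059), and control cells had -0.10 ± 0.092 (adjusted p = 0.35). HEXA in E5 against control cells had 0.14 ± 0.091 (adjusted p = 0.23) under FOLFIRINOX and was higher by 0.33 ± 0.092 (adjusted p = 0.0075) under vehicle. GLA, the alpha-galactosidase lost in Fabry disease, averaged 93.3 ± 2.85 CPM (SD, n = 3) in E5 FOLFIRINOX libraries, 104 ± 3.36 in E5 vehicle libraries, 62.3 ± 3.15 in control FOLFIRINOX libraries and 62.2 ± 5.04 in control vehicle libraries. It was higher in E5 cells by 0.58 ± 0.069 (adjusted p = 2.3e-06) under FOLFIRINOX and by 0.74 ± 0.07 (adjusted p = 1.4e-07) under vehicle, with drug responses of -0.16 ± 0.069 (adjusted p = 0.063) in E5 cells and 0.01 ± 0.071 (adjusted p = 0.94) in control cells. The first of these passed without control vehicle library 2 (-0.16, adjusted p = 0.048) or 3 (-0.16, 0.047). IDS averaged 17.7 ± 2.05 CPM (SD, n = 3) in E5 FOLFIRINOX libraries, 15.8 ± 1.54 in E5 vehicle libraries, 11.2 ± 0.632 in control FOLFIRINOX libraries and 12.8 ± 0.385 in control vehicle libraries and was higher in E5 cells by 0.65 ± 0.1 (adjusted p = 4.9e-05) under FOLFIRINOX and by 0.30 ± 0.11 (adjusted p = 0.027) under vehicle, the second call being lost without control vehicle library 2 (0.29, adjusted p = 0.082), control vehicle library 3 (0.30, 0.063) or E5 vehicle library 3 (0.22, 0.15). The drug response of IDS was 0.17 ± 0.1 (adjusted p = 0.18) in E5 cells and -0.17 ± 0.11 (adjusted p = 0.17) in control cells. The authors' FPKM give 0.41 in E5 cells (adjusted p = 0.00032 by limma), which passed, and 0.13 in control cells without a filter, which turns the direction.

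Of the 6 lipid hydrolases and activators, 1 rose and 4 fell in E5 cells and 1 rose and 5 fell in control cells. Among all tested genes 25% rose and 27.3% fell in E5 cells, and 32.6% rose and 32.7% fell in control cells. The control cell calls of SMPD1 and PPT1 depended on single libraries, as given below. ASAH1, which cuts ceramide into sphingosine and fatty acid, was the lipid group member that rose in each line. ASAH1 had 84.1, 81.98 and 86.4 CPM in E5 FOLFIRINOX libraries and 54.1, 58.4 and 57.8 in E5 vehicle libraries. For ASAH1, 74.98, 70.1 and 77.8 CPM were found in control FOLFIRINOX libraries and 42.9, 43.8 and 44.7 in control vehicle libraries. No groups overlapped, and both FOLFIRINOX groups lay above both vehicle groups. ASAH1 rose by 0.56 ± 0.064 (adjusted p = 1.6e-06) in E5 cells and by 0.76 ± 0.064 (adjusted p = 2.5e-08) in control cells, with a difference of -0.19 ± 0.091 (adjusted p = 0.13). It was higher in E5 than in control cells by 0.18 ± 0.062 (adjusted p = 0.021) under FOLFIRINOX, a call lost without control FOLFIRINOX library 2 (0.15, adjusted p = 0.058), and by 0.37 ± 0.066 (adjusted p = 0.00017) under vehicle.

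SMPD1 (ENSG00000166311.10, chromosome 11, 6390440 to 6394998, GRCh38), the acid sphingomyelinase, makes ceramide from sphingomyelin and so acts just before ASAH1. It had 16.2, 14.1 and 14.03 CPM in E5 FOLFIRINOX libraries and 32.8, 35.6 and 34.04 in E5 vehicle libraries. For SMPD1, 9.002, 13.6 and 11.6 CPM were found in control FOLFIRINOX libraries and 14.2, 13.99 and 16.4 in control vehicle libraries. The E5 vehicle libraries stood alone above the other groups, among which the E5 FOLFIRINOX and control vehicle libraries overlapped. SMPD1 fell 2.31-fold in E5 cells, -1.21 ± 0.11 (adjusted p = 1.5e-07), and 1.27-fold in control cells, -0.34 ± 0.12 (adjusted p = 0.02), with a difference of -0.87 ± 0.16 (adjusted p = 0.0011). The control cell call was lost without control FOLFIRINOX library 1 (-0.24, adjusted p = 0.078) or 3 (-0.32, 0.058) or control vehicle library 3 (-0.26, 0.1). SMPD1 in E5 cells was 2.3-fold higher than in control cells under vehicle, 1.2 ± 0.11 (adjusted p = 1.2e-07). Under FOLFIRINOX it was higher by 0.33 ± 0.12 (adjusted p = 0.026), a call lost without control FOLFIRINOX library 1 (0.25, adjusted p = 0.08) or 3 (0.33, 0.061) or E5 FOLFIRINOX library 1 (0.26, 0.12).

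PSAP (ENSG00000197746.14, chromosome 10, 71816298 to 71851325, GRCh38) was the most abundant of the lipid group and stood at 1060.2, 1066 and 983 CPM in E5 FOLFIRINOX libraries and 1588, 1469 and 1403 in E5 vehicle libraries. For PSAP, 966, 1038 and 929 CPM were found in control FOLFIRINOX libraries and 1707, 1615 and 1797 in control vehicle libraries. The FOLFIRINOX libraries of both lines overlapped and lay below every vehicle library, and the control vehicle libraries were highest. PSAP fell in E5 cells (log2 fold change -0.52 ± 0.061, adjusted p = 2.3e-06) and in control cells (-0.80 ± 0.061, adjusted p = 6.4e-09). The difference was 0.28 ± 0.086 (adjusted p = 0.023), which did not pass without control FOLFIRINOX library 3 (0.25, adjusted p = 0.051), control vehicle library 3 (0.25, 0.054), E5 FOLFIRINOX library 2 (0.27, 0.052) or E5 vehicle library 3 (0.25, 0.065). In E5 against control cells PSAP had 0.08 ± 0.061 (adjusted p = 0.26) under FOLFIRINOX and was lower under vehicle, at -0.20 ± 0.061 (adjusted p = 0.013), a call lost without control vehicle library 3 (-0.16, adjusted p = 0.063) or E5 vehicle library 3 (-0.16, 0.076).

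GM2A (ENSG00000196743.9, chromosome 5, 151212150 to 151270440, GRCh38) lifts the ganglioside GM2 out of membranes for hexosaminidase A, and fell most of all members in control cells. It had 53.7, 46.4 and 50.98 CPM in E5 FOLFIRINOX libraries and 78.9, 80.1 and 88.3 in E5 vehicle libraries. For GM2A, 26.5, 39.9 and 31.6 CPM were found in control FOLFIRINOX libraries and 74.6, 86.3 and 68.4 in control vehicle libraries. The FOLFIRINOX libraries lay below the vehicle libraries in each line, and the vehicle libraries of the lines overlapped. GM2A fell 1.64-fold in E5 cells, -0.71 ± 0.11 (adjusted p = 6.6e-05), and 2.3-fold in control cells, -1.2 ± 0.12 (adjusted p = 1.3e-07). Its difference of 0.49 ± 0.16 (adjusted p = 0.035) was lost without any 1 of 8 libraries, namely control FOLFIRINOX library 1 or 3, control vehicle library 1 or 2, E5 FOLFIRINOX library 1 or 3 and E5 vehicle library 1 or 2, with values of 0.39 to 0.52 and adjusted p-values of 0.054 to 0.1. Under FOLFIRINOX it was higher in E5 than in control cells by 0.60 ± 0.12 (adjusted p = 0.00038), and under vehicle it had 0.11 ± 0.11 (adjusted p = 0.47).

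LIPA and PPT1 complete the lipid group. LIPA, the acid lipase that frees cholesterol from its esters, averaged 95.9 ± 7.76 CPM (SD, n = 3) in E5 FOLFIRINOX libraries, 144 ± 4.54 in E5 vehicle libraries, 88.8 ± 2.70 in control FOLFIRINOX libraries and 128 ± 1.47 in control vehicle libraries. It fell in E5 cells (log2 fold change -0.58 ± 0.064, adjusted p = 1.2e-06) and in control cells (-0.53 ± 0.064, adjusted p = 1.7e-06), and E5 against control cells gave 0.11 ± 0.065 (adjusted p = 0.16) under FOLFIRINOX and 0.16 ± 0.064 (adjusted p = 0.052) under vehicle. The last of these passed as higher without control FOLFIRINOX library 2 (0.17, adjusted p = 0.04), E5 FOLFIRINOX library 1 (0.16, 0.031) or E5 FOLFIRINOX library 3 (0.17, 0.043). PPT1, which removes palmitate from proteins, averaged 193 ± 10.6 CPM (SD, n = 3) in E5 FOLFIRINOX libraries, 187 ± 6.79 in E5 vehicle libraries, 165 ± 8.66 in control FOLFIRINOX libraries and 184 ± 3.27 in control vehicle libraries. It had 0.05 ± 0.06 (adjusted p = 0.55) in E5 cells and fell in control cells (log2 fold change -0.16 ± 0.06, adjusted p = 0.025), a call lost without control FOLFIRINOX library 2 (-0.12, adjusted p = 0.1) or control vehicle library 3 (-0.15, 0.065), and lost with total counts only (-0.03, adjusted p = 0.68). PPT1 was higher in E5 cells by 0.23 ± 0.06 (adjusted p = 0.004) under FOLFIRINOX and had 0.02 ± 0.061 (adjusted p = 0.83) under vehicle.

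Other genes of the same organelle were counted from lists chosen by function, of 136 genes in 7 lists, 127 of them tested. With the drug 29 rose and 56 fell in E5 cells and 45 rose and 44 fell in control cells. In E5 against control cells 41 were higher and 31 lower under FOLFIRINOX, and 52 were higher and 11 lower under vehicle. The shares called were 66.9% for the drug in E5 cells and 70.1% in control cells, beside 52.3% and 65.3% of all genes. They were 56.7% between the lines under FOLFIRINOX and 49.6% under vehicle, beside 54.3% and 44.3% of all genes. In control cells the drug split was near that of all genes, of which 32.6% were higher and 32.7% lower. For the drug in E5 cells 25% of all genes were higher and 27.3% lower. Between the lines 26.7% of all genes were higher and 27.6% lower under FOLFIRINOX, and 22.1% and 22.2% under vehicle. The 127 tested list genes had median log2 fold changes of -0.11 and 0.05 for the drug in E5 and control cells. For E5 against control cells their medians were 0.04 under FOLFIRINOX and 0.17 under vehicle. The members, with medians of -0.26, -0.21, 0.25 and 0.34 in the same order, lay farther from 0. Members and lists were chosen with earlier results of these data known, so this contrast cannot be told apart from that choice.

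Genes that control the TFE factors at the lysosome included RRAGD and RRAGC. RRAGD, a Rag GTPase that brings mTORC1 and the TFE factors to the lysosomal surface, had 23.1, 23.2 and 22.3 CPM in E5 FOLFIRINOX libraries and 9.64, 8.36 and 9.70 in E5 vehicle libraries. For RRAGD, 30.1, 33.04 and 33.7 CPM were found in control FOLFIRINOX libraries and 4.003, 3.39 and 3.83 in control vehicle libraries. No groups overlapped, with control FOLFIRINOX highest and control vehicle lowest. RRAGD rose 2.5-fold in E5 cells, 1.32 ± 0.094 (adjusted p = 9.9e-09), and 8.79-fold in control cells, 3.14 ± 0.1 (adjusted p = 3.7e-13), with a difference of -1.82 ± 0.14 (adjusted p = 2.6e-07). RRAGC, its close relative, rose by 0.41 ± 0.068 (adjusted p = 9.2e-05) in E5 cells and by 1.07 ± 0.067 (adjusted p = 6.7e-10) in control cells, and its response was smaller in E5 cells (difference -0.66 ± 0.096, adjusted p = 0.00011). MITF, the third TFE factor, averaged 17.6 ± 0.892 CPM (SD, n = 3) in E5 FOLFIRINOX libraries, 11.4 ± 0.886 in E5 vehicle libraries, 9.19 ± 0.735 in control FOLFIRINOX libraries and 5.16 ± 1.22 in control vehicle libraries, and was higher in E5 cells by 0.93 ± 0.12 (adjusted p = 3.4e-06) under FOLFIRINOX and by 1.22 ± 0.14 (adjusted p = 1.3e-06) under vehicle. Of the 22 tested genes of this list, 7 rose and 8 fell with the drug in E5 cells, 5 rose and 8 fell in control cells, and in E5 against control cells 6 were higher and 5 lower under FOLFIRINOX and 6 higher and 3 lower under vehicle. Drug calls covered 68.2% in E5 cells and 59.1% in control cells, beside 52.3% and 65.3% of all genes. Line calls covered 50% under FOLFIRINOX and 40.9% under vehicle, beside 54.3% and 44.3% of all genes. LAMTOR2, part of the Rag anchor, fell in E5 cells (log2 fold change -0.94 ± 0.097, adjusted p = 5.9e-07) and in control cells (-0.80 ± 0.098, adjusted p = 1.9e-06), and FNIP2, a partner of folliculin, was lower in E5 cells under FOLFIRINOX (-0.80 ± 0.1, adjusted p = 5.5e-06).

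**Figure D5:**
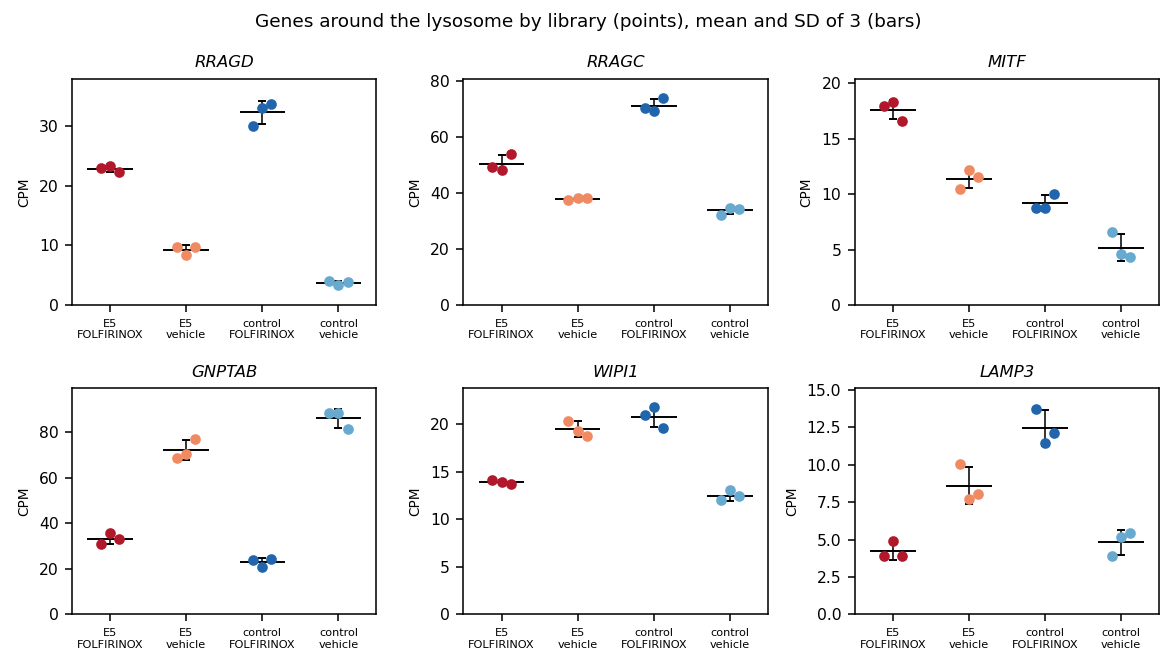
CPM of RRAGD, RRAGC, MITF, GNPTAB, WIPI1 and LAMP3 in each of the 12 libraries (points), with the mean and SD of the 3 libraries of a group (bars), each panel on its own axis from 0. RRAGD, RRAGC and LAMP3 are highest in control FOLFIRINOX libraries, MITF in E5 FOLFIRINOX libraries and GNPTAB in control vehicle libraries.

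On the route that delivers hydrolases by the mannose 6-phosphate tag, GNPTAB, the enzyme that starts the tag, fell in both lines. It averaged 33.3 ± 2.39 CPM (SD, n = 3) in E5 FOLFIRINOX libraries, 71.96 ± 4.34 in E5 vehicle libraries, 22.9 ± 1.96 in control FOLFIRINOX libraries and 86 ± 4.06 in control vehicle libraries. GNPTAB fell 2.17-fold in E5 cells, -1.12 ± 0.08 (adjusted p = 1.1e-08), and 3.78-fold in control cells, -1.92 ± 0.083 (adjusted p = 9.6e-12), with a difference of 0.80 ± 0.11 (adjusted p = 1e-04). E5 against control cells gave 0.54 ± 0.085 (adjusted p = 4.1e-05) under FOLFIRINOX and -0.25 ± 0.077 (adjusted p = 0.013) under vehicle, the second call being lost without E5 vehicle library 1 (-0.22, adjusted p = 0.052) or 2 (-0.24, 0.053). The receptor M6PR rose by 0.13 ± 0.052 (adjusted p = 0.04) in E5 cells and by 0.53 ± 0.052 (adjusted p = 1.3e-07) in control cells, a response that was smaller in E5 cells (difference -0.40 ± 0.073, adjusted p = 0.00086). M6PR was higher in E5 cells under vehicle by 0.31 ± 0.052 (adjusted p = 0.00011). The adaptor GGA1 fell in E5 cells (log2 fold change -0.54 ± 0.1, adjusted p = 3e-04) and in control cells (-0.42 ± 0.1, adjusted p = 0.0019), and GGA3 was lower in E5 cells under FOLFIRINOX (-0.39 ± 0.094, adjusted p = 0.002). With the authors' FPKM the GGA1 call and the GNPTAB calls between the lines and for the difference were lost. Of the 8 genes of this route, 1 rose and 3 fell in E5 cells, 3 rose and 2 fell in control cells, and in E5 against control cells 1 was higher and 3 lower under FOLFIRINOX and 1 higher and 1 lower under vehicle. Drug calls covered 50% in E5 cells and 62.5% in control cells, beside 52.3% and 65.3% of all genes. Line calls covered 50% under FOLFIRINOX and 25% under vehicle, beside 54.3% and 44.3% of all genes.

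Hydrolases outside the member list fell with the drug in number. Of 22 tested hydrolases, 3 rose and 16 fell in E5 cells and 4 rose and 13 fell in control cells, and in E5 against control cells 12 were higher and 3 lower under FOLFIRINOX and 14 higher and 1 lower under vehicle. Drug calls covered 86.4% in E5 cells and 77.3% in control cells, beside 52.3% and 65.3% of all genes. Line calls covered 68.2% under FOLFIRINOX and 68.2% under vehicle, beside 54.3% and 44.3% of all genes. FUCA1, the fucosidase, fell 3.1-fold in E5 cells, -1.63 ± 0.12 (adjusted p = 1.2e-08), and 2.95-fold in control cells, -1.56 ± 0.13 (adjusted p = 2.2e-08). DNASE2, the acid DNase, fell in E5 cells (log2 fold change -1.28 ± 0.085, adjusted p = 4.2e-09) and in control cells (-1.15 ± 0.091, adjusted p = 9.6e-09). GALC, which cuts galactosylceramide, fell in E5 cells (log2 fold change -1.02 ± 0.089, adjusted p = 8.2e-08) and in control cells (-1.43 ± 0.091, adjusted p = 8.8e-10). SUMF1, which activates sulfatases, had a difference of 0.50 ± 0.12 (adjusted p = 0.0059). In E5 cells DNASE2 was higher by 0.74 ± 0.092 (adjusted p = 3.3e-06) under FOLFIRINOX and by 0.86 ± 0.083 (adjusted p = 2e-07) under vehicle, the sulfatase ARSB by 0.85 ± 0.091 (adjusted p = 5.4e-07) under FOLFIRINOX and the sulfatase ARSA by 1.35 ± 0.14 (adjusted p = 4.4e-07) under vehicle.

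Of 10 other lysosomal proteases, 8 fell and 2 did not pass with the drug in E5 cells, 1 rose and 5 fell in control cells, and in E5 against control cells 4 were higher and 1 lower under each treatment. Drug calls covered 80% in E5 cells and 60% in control cells, beside 52.3% and 65.3% of all genes. Line calls covered 50% under FOLFIRINOX and 50% under vehicle, beside 54.3% and 44.3% of all genes. CTSS, a cathepsin of antigen-presenting cells, averaged 7.10 ± 0.598 CPM (SD, n = 3) in E5 FOLFIRINOX libraries, 14.8 ± 0.647 in E5 vehicle libraries, 1.61 ± 0.214 in control FOLFIRINOX libraries and 0.375 ± 0.0715 in control vehicle libraries. CTSS was 4.28-fold higher in E5 cells under FOLFIRINOX, 2.10 ± 0.15 (adjusted p = 2.8e-09), and 38.3-fold higher under vehicle, 5.26 ± 0.18 (adjusted p = 2.5e-13). With the drug CTSS fell in E5 cells (log2 fold change -1.06 ± 0.11, adjusted p = 4.1e-07) and rose by 2.10 ± 0.26 (adjusted p = 2.5e-06) in control cells, with a difference of -3.16 ± 0.28 (adjusted p = 9.6e-07). Control vehicle libraries held 0.334 to 0.458 CPM of CTSS. Over all settings its log2 fold change in E5 cells under vehicle ranged from 2.85 to 5.44, the drug response in control cells from 0.77 to 2.28 and the difference from -3.34 to -1.6. CTSV, close in sequence to CTSL, fell in E5 cells (log2 fold change -0.60 ± 0.072, adjusted p = 3e-06) and in control cells (-1.54 ± 0.072, adjusted p = 2.1e-11), with a difference of 0.94 ± 0.1 (adjusted p = 5.8e-06), and was lower in E5 cells under vehicle (-1.09 ± 0.071, adjusted p = 1.1e-09). CTSC, which activates serine proteases of granules, was higher in E5 cells under FOLFIRINOX by 0.56 ± 0.052 (adjusted p = 9e-08).

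Membrane proteins and pump subunits outside the list were divided. Of 18 tested membrane proteins, 5 rose and 8 fell in E5 cells, 8 rose and 4 fell in control cells, and in E5 against control cells 5 were higher and 5 lower under FOLFIRINOX and 9 higher and 1 lower under vehicle. Drug calls covered 72.2% in E5 cells and 66.7% in control cells, beside 52.3% and 65.3% of all genes. Line calls covered 55.6% under FOLFIRINOX and 55.6% under vehicle, beside 54.3% and 44.3% of all genes. TMEM192 rose by 0.58 ± 0.076 (adjusted p = 8.8e-06) in E5 cells and by 1.07 ± 0.074 (adjusted p = 2.2e-09) in control cells, and LITAF fell in E5 cells (log2 fold change -0.52 ± 0.062, adjusted p = 2.9e-06) and in control cells (-0.38 ± 0.063, adjusted p = 4.8e-05). The cholesterol exporter NPC1 rose by 0.45 ± 0.064 (adjusted p = 2.1e-05) in E5 cells and by 0.83 ± 0.065 (adjusted p = 1e-08) in control cells. It was higher in E5 cells under vehicle by 0.63 ± 0.065 (adjusted p = 4.6e-07). LAMP3 averaged 4.24 ± 0.586 CPM (SD, n = 3) in E5 FOLFIRINOX libraries, 8.62 ± 1.25 in E5 vehicle libraries, 12.5 ± 1.18 in control FOLFIRINOX libraries and 4.83 ± 0.822 in control vehicle libraries, with a difference of -2.31 ± 0.21 (adjusted p = 9.8e-07) and a lower level in E5 cells under FOLFIRINOX, -1.54 ± 0.14 (adjusted p = 7.9e-08). The sterol carrier NPC2 had a difference of -0.67 ± 0.11 (adjusted p = 0.00029). The peptide transporter ABCB9 was higher in E5 cells by 1.18 ± 0.1 (adjusted p = 3.9e-08) under FOLFIRINOX and by 0.79 ± 0.093 (adjusted p = 2.5e-06) under vehicle.

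Of 15 other pump subunits, 5 rose and 1 fell in E5 cells and 8 rose and 2 fell in control cells, whereas 4 of the 4 pump members above fell in E5 cells and 3 in control cells. In E5 against control cells 5 of the 15 were higher and 5 lower under FOLFIRINOX, and 5 were higher and 10 did not pass under vehicle. Drug calls covered 40% of the 15 in E5 cells and 66.7% in control cells, beside 52.3% and 65.3% of all genes. Line calls covered 66.7% under FOLFIRINOX and 33.3% under vehicle, beside 54.3% and 44.3% of all genes. ATP6V1D rose by 0.32 ± 0.057 (adjusted p = 0.00018) in E5 cells and by 0.60 ± 0.057 (adjusted p = 1e-07) in control cells. ATP6V0A2 rose by 0.20 ± 0.079 (adjusted p = 0.038) in E5 cells and by 0.77 ± 0.078 (adjusted p = 2.3e-07) in control cells, and its response was smaller in E5 cells (difference -0.56 ± 0.11, adjusted p = 0.0016). ATP6V1E1 fell in E5 cells (log2 fold change -0.51 ± 0.06, adjusted p = 2.3e-06) and had 0.05 ± 0.061 (adjusted p = 0.47) in control cells, with a difference of -0.56 ± 0.085 (adjusted p = 0.00016). ATP6V1E1 was higher in E5 cells by 0.42 ± 0.06 (adjusted p = 1.5e-05) under FOLFIRINOX and by 0.99 ± 0.061 (adjusted p = 5.3e-10) under vehicle. ATP6V0E1 was higher in E5 cells by 0.45 ± 0.059 (adjusted p = 6.6e-06) under FOLFIRINOX and by 0.66 ± 0.06 (adjusted p = 9.7e-08) under vehicle.

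Of 32 tested autophagy genes, whose products bring cargo to lysosomes alongside SQSTM1, 8 rose and 12 fell in E5 cells and 16 rose and 10 fell in control cells, and in E5 against control cells 8 were higher and 9 lower under FOLFIRINOX and 13 higher and 4 lower under vehicle. Drug calls covered 62.5% in E5 cells and 81.2% in control cells, beside 52.3% and 65.3% of all genes. Line calls covered 53.1% under FOLFIRINOX and 53.1% under vehicle, beside 54.3% and 44.3% of all genes. The initiating kinase ULK2 fell in E5 cells (log2 fold change -1.04 ± 0.062, adjusted p = 1.4e-09) and in control cells (-1.06 ± 0.062, adjusted p = 2.8e-10). The conjugating enzyme ATG3 rose by 0.73 ± 0.058 (adjusted p = 3.1e-08) in E5 cells and by 0.70 ± 0.057 (adjusted p = 1.5e-08) in control cells. The receptor OPTN had 0.14 ± 0.059 (adjusted p = 0.051) in E5 cells and rose by 0.81 ± 0.059 (adjusted p = 3.7e-09) in control cells, with a response smaller in E5 cells (difference -0.67 ± 0.083, adjusted p = 2.3e-05). GABARAPL1, an ATG8-family protein, was higher in E5 cells by 0.58 ± 0.059 (adjusted p = 3.4e-07) under FOLFIRINOX and by 0.57 ± 0.058 (adjusted p = 3.7e-07) under vehicle. WIPI1, which binds the lipid of forming autophagosomes, averaged 13.9 ± 0.226 CPM (SD, n = 3) in E5 FOLFIRINOX libraries, 19.5 ± 0.828 in E5 vehicle libraries, 20.8 ± 1.14 in control FOLFIRINOX libraries and 12.5 ± 0.515 in control vehicle libraries. WIPI1 was lower in E5 cells under FOLFIRINOX, -0.58 ± 0.081 (adjusted p = 1.3e-05), and higher under vehicle, 0.63 ± 0.085 (adjusted p = 1.2e-05). The drug responses of WIPI1 differed by -1.2 ± 0.12 (adjusted p = 2.4e-06).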

How the data were processed

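RNA-seq of 12 libraries of 4 groups was analysed, and the members and gene lists were chosen with earlier results of these data known. Per the submitters' processing notes, Trimmomatic and STAR 2.5.1b were used with build GRCh38. The authors deposited stranded read counts per gene and, in another table, FPKM per gene. Unmapped (1.47 to 1.7%), multimapping (10.8 to 12.8%), featureless (6.63 to 8.52%) and ambiguous (2.86 to 3.2%) reads were kept out of totals and tests, and 0 columns of other samples were found.

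Counts were filtered with filterByExpr, scaled by TMM and tested with edgeR 4.0.16 (glmQLFit and glmQLFTest, R 4.3.3) in 1 fit over the 4 groups, with Benjamini-Hochberg adjustment over 15636 genes. The biological coefficient of variation was 7.37%, and replicate counts differed beyond sampling noise, with chi-square per degree of freedom of 1.46 to 13.6. DESeq2 1.42.0 and limma 3.58.1 on log2(FPKM + 1) served as alternatives, as did other scaling, no filter, a replicate block and leaving out each library. On simulated data for the 4 direct comparisons, the test called 4 to 14% of genes changed 1.2-fold. It called 58 to 73.5% of those changed 1.5-fold and 88 to 94% of those changed 2-fold. Only 50 genes per size of change were altered there, whereas 44.3 to 65.3% of all genes were called in the data. The adjusted cut-off was thus stricter in the simulation, so its rates do not carry over to the data. Small changes can still be missed. Genes outside the member list were named by a rule, the 2 with the smallest p-values past the test per list and comparison with at least 5 CPM, and 1 gene so named is not reported here.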

Additional observations from a re-analysis of the deposited data

Results flagged for a closer look

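The drug response, FOLFIRINOX against vehicle, differed between E5 and control cells by the interaction term in edgeR's quasi-likelihood fit for 8 enzymes, cofactors and receptors of the lysosome and for TFEB. These are 26.5% of the 34 tested members, close to the 25.7% of all tested genes. The log2 difference, E5 response minus control response, was -1.27 for the sialidase NEU1, -0.87 for the sphingomyelinase SMPD1, -0.6 for NAGLU, -0.43 for GUSB, -0.42 for the autophagy receptor SQSTM1 and -0.4 for the protease CTSB. It was 0.81 for TFEB, 0.49 for GM2A and 0.28 for PSAP. For NEU1 the response lay in control cells, for SMPD1, NAGLU and GUSB the fall was larger in E5 cells, for SQSTM1 the rise was smaller in E5 cells, and for GM2A and PSAP the fall was smaller in E5 cells. CTSB fell in E5 cells and did not pass in control cells, and TFEB fell in control cells and did not pass in E5 cells. No group of libraries was large enough to test for a library far from the others. With the authors' FPKM the differences of TFEB, GM2A and PSAP were not called in any of the 3 settings and that of SMPD1 in 2 of them, and that of GUSB was not called without the filter on low counts. By read counts the GM2A call was lost without any 1 of 8 libraries and the PSAP call without any 1 of 4.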

How the results depend on the processing

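Directions that turned with a call in the main fit or in the other setting were those of small drug responses with the authors' FPKM. In control cells these were LAMP2 (0.23, 0.24 and 0.23 with a pseudocount of 1, of 0.1 and with no filter), SCARB2 (0.10, 0.10 and 0.10), ATP6V1A (0.04, 0.05 and 0.04) and, with no filter, IDS (0.13). In E5 cells it was LAMP2 with no filter (0.14). Some values without a call in either fit also changed sign. Examples are the drug response of CTSZ in control cells, which ranged from -0.47 to 0.46 over all settings, and that of HEXA there, from -0.15 to 0.15. For GLB1 in E5 against control cells under FOLFIRINOX the range was -0.09 to 0.27. The number of members that rose in control cells was 11 with FPKM and no filter, and the number that fell was 11 with total counts only and 9 in all 3 FPKM settings. In E5 cells 5 rose with FPKM and a pseudocount of 1, and 6 rose and 12 fell with FPKM and no filter. Members lower in E5 cells under vehicle numbered 2 in all 3 FPKM settings and 0 to 2 with 1 library left out, and under FOLFIRINOX 1 with no filter, 2 with DESeq2 and 1 to 4 with 1 library left out. The difference of responses was higher for 1 member with total counts only, for 1, 0 and 1 in the 3 FPKM settings and for 1 to 3 with 1 library left out, and lower for 11 with total counts only. The cause was not tested. With FPKM and a pseudocount of 1, the median of all genes moved to 0.14 for the drug in control cells and to -0.1 for the difference.

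With the replicate number as a block, the members called higher and lower were 3 and 19 for the drug in E5 cells, 7 and 17 in control cells, 19 and 3 between the lines under FOLFIRINOX, 21 and 1 under vehicle, and 3 and 6 for the difference. The calls lost were MCOLN1 under FOLFIRINOX (-0.22, adjusted p = 0.061) and ATP6V1H under vehicle (0.18, adjusted p = 0.051), both by edgeR. Same-numbered libraries deviated from their group means with correlations of -0.19 to 0.15, and 3 of 12 libraries correlated best with their own number, so the numbers are not taken as pairs. Counts of 2 to 13 reads per library kept CLN3 out of every test, and why they were so low was not tested. Among tested members, low counts limit CTSZ and TFEB most.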
